A study of Drosophila melanogaster with 3 samples.

Results

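The genes described here are the 54 Drosophila melanogaster genes that encode the dpr, DIP, beat and side families of cell-surface recognition proteins. They were taken from the 13945 protein-coding genes on the major chromosome arms by symbol alone, as those named dpr followed by a number, DIP-, beat- or side. The symbol rule used no measured value, but the gene set was chosen with earlier results of these data known. The dpr family had 21 genes, the DIP family 11, the beat family 14 and the side family 8. The question was how often the transcription factor Spalt-related (salr) occupied these genes, and where within them.

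These proteins belong to the immunoglobulin superfamily and sit on the surface of neurons and of the cells that neurons contact. The dpr proteins bind DIP proteins, and beat proteins bind side proteins. Matching partners on opposing cells guide motor axons to muscles and help neurons choose synaptic partners, in the visual system among other places. Spalt-related, a zinc-finger protein and the paralogue of Spalt major, is known for patterning the wing and for specifying photoreceptors and sensory organs.

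The libraries came from whole prepupae, males and females pooled, of a stably transgenic line in which salr was fused to GFP at its C-terminus. Chromatin was immunoprecipitated with an antibody against GFP and sequenced. There were 3 biological replicates of this one genotype (salr-GFP), with no second group, so there is no contrast between conditions and no test between samples. Occupancy is described by the summit of each peak, the position of its highest point. The authors' optimal list, thresholded by the irreproducible discovery rate (IDR) across replicates, held 6485 peaks and is called the IDR list. Each replicate also had a list of 30000 entries that included background. From each of these the 6485 entries with the highest signal value, an authors' score that ranks peaks within a list, were taken as the best-ranked peaks. Since whole animals were used, occupancy in a few cells cannot be told apart from weaker occupancy in many. Library depth was not given in the lists, which limits what the absence of a peak can show.

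Only 10 IDR summits touched the 54 genes, 9 inside a gene and 1 upstream of a start site. The sequences 50 bp to each side of 9 of these summits are printed in the order of their signal value, since they are the stretches on which the occupancy of these genes rests. They come from the Release 6 (dm6) genome, 5′ to 3′ on the plus strand. Capitals mark matches, on either strand, to any of 10 short motifs named further on.
beat-Ib (chr2L:15911205-15911305, plus strand): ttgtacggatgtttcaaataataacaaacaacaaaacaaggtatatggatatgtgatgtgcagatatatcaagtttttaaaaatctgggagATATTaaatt
DIP-alpha (chrX:3546276-3546376, plus strand): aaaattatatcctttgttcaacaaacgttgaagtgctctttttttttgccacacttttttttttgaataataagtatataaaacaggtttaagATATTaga
side-IV (chr3R:13453015-13453115, plus strand): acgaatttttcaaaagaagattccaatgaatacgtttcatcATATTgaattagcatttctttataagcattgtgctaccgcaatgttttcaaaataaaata
beat-Ib (chr2L:15912165-15912265, plus strand): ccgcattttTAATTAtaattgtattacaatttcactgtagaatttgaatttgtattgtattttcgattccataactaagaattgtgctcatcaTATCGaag
dpr14 (chrX:7908731-7908831, plus strand): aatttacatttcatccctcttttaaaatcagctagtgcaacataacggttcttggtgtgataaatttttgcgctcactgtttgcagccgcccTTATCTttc
beat-IIIc (chr2L:17211449-17211549, plus strand): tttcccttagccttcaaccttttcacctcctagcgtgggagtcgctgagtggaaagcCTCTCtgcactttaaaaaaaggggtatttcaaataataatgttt
side (chr3R:27407215-27407315, plus strand): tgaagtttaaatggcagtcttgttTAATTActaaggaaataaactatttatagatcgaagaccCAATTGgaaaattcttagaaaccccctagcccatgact
beat-IIIc (chr2L:17211652-17211752, plus strand): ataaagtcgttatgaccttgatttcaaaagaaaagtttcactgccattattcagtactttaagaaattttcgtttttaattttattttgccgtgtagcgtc
beat-IIIc (chr2L:17243480-17243580, plus strand): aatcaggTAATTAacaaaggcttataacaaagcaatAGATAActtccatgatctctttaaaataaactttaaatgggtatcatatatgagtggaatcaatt

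These stretches were AT-rich. Their GC content ranged from 23.8% at DIP-alpha to 41.6% at the first beat-IIIc summit, and the median over all 10 member summits was 28.2%, against 32.7% over all 6485 IDR summits. The motif ATATT, bound in mouse by a zinc-finger cluster of the Spalt-family protein SALL4, was present in 4 of the 10 windows (40%, Wilson 95% interval 16.8 to 68.7) and in 49.1% of all IDR windows. With 100 bp to each side the order turned, to 80% of member windows and 70.5% of all. The 4 included the windows with the 3 highest signal values, in beat-Ib, DIP-alpha and side-IV. The homeodomain core TAATTA was found in 3 windows (30%, 10.8 to 60.3), those of the second beat-Ib summit, side and the last printed beat-IIIc summit, against 9.78% of all windows. AGATAA, the site of GATA factors, was in 2 windows (dpr14 and beat-IIIc) and in 7.96% of all. GAGAG (the core of the GAGA factor site), CGATA (BEAF-32) and CANNTG (the E-box) were each in 1 window, against 11.6%, 10.8% and 33.7% of all. TATCGATA (the DRE, which contains CGATA), GGTCACACT (motif 1), CAGGTAG (Zelda) and the repeat CACACACA were in none of the 10, where a count of 0 allows a share of up to 27.8% by the Wilson interval. All motifs were searched on both strands, and with 10 windows no share is known closely. The intervals cover counting error only.

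The recognition genes were nearly empty of salr summits. Their spans, from the first to the last annotated base, cover 2.52 Mb and held 9 IDR summits, where the density of the major arms would give 122.1. The density was 0.0357 summits per 10 kb, against 0.484 over the arms and 0.469 over the spans of all protein-coding genes. That is 0.0737 times the genome density. In the best-ranked peaks of replicates 1, 2 and 3 the spans held 10, 10 and 11 summits, or 0.0397, 0.0397 and 0.0436 per 10 kb. The mean was 10.3 ± 0.577 summits (SD, n = 3), so the replicates differed by 1 summit at most. The ratio to the genome was 0.0819, 0.0819 and 0.0901.

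Summits in the span were found for 6 of the 54 genes (11.1%), beside 11.8% of all protein-coding genes. The shares are near each other, but the spans are not. The recognition genes had a median span of 36.2 kb (3.74 to 379 kb) and other protein-coding genes one of 2.16 kb. Among other genes with 0.8 to 1.2 times the span of each member, 50.8% on average had a summit, which would be 27.5 of 54 genes. The same genes carried on average 123.6 summits in sum, so the members held 0.0728 times the summits of genes of equal span. In replicates 1, 2 and 3 there were 7, 8 and 6 members with a best-ranked summit, beside 12.0%, 12.1% and 12.7% of all genes. The ratio to genes of equal span was 0.0807, 0.0870 and 0.0926.

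**Figure D1:**
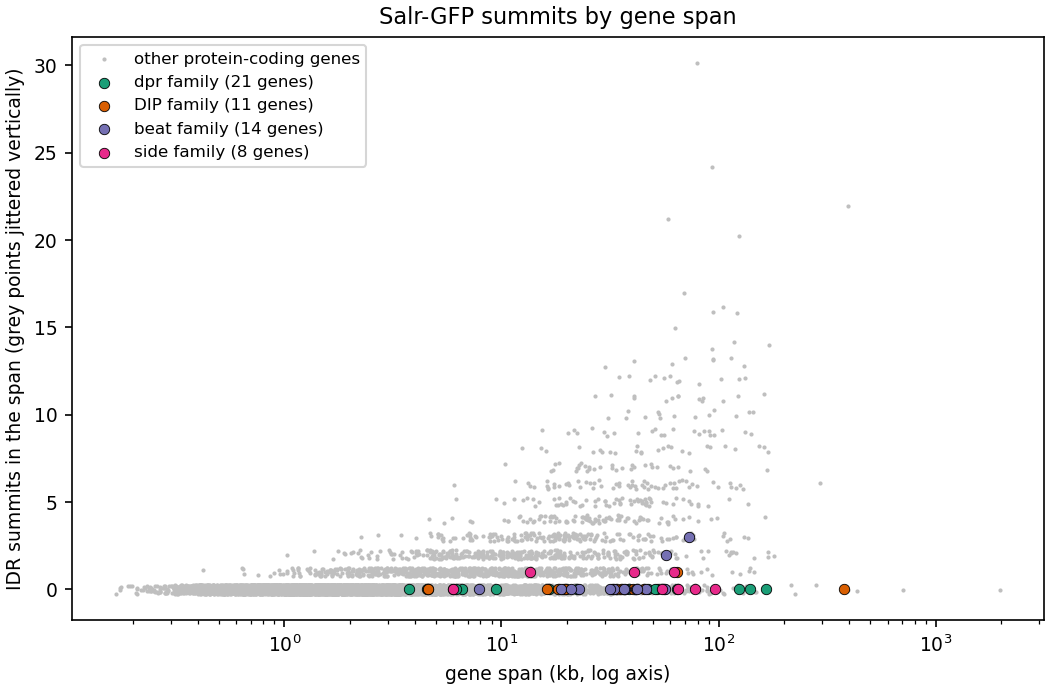
Number of IDR summits in the span of each protein-coding gene (vertical axis) against its span in kb (horizontal log axis), with the 54 recognition genes coloured by family and other genes in grey, jittered vertically. The coloured points lie at 0 for 48 genes and reach 3 at beat-IIIc, while grey points of the same span often lie above.

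The gap held in each class of span above 20 kb. Of the 19 members with spans of 20 to 50 kb, 1 had a summit (5.26%), against 56.0% of 687 other genes. Of the 13 with spans of 50 to 100 kb, 4 had one (30.8%), against 65.4% of 211 others, and none of the 4 members longer than 100 kb did, against 70.9% of 79. Between 10 and 20 kb it was 1 of 8 members and 42.4% of other genes. Below 10 kb the count was 0 of 10 against 5.49%, a difference that 10 genes cannot show. The longest of these genes have few others of their size, and DIP-lambda has only 3 genes of equal span.

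Start sites were rarely occupied. An IDR summit lay within 500 bp of an annotated start site for 1 member, dpr14 (1.85%), beside 12.5% of all protein-coding genes. In the best-ranked peaks of replicates 1, 2 and 3 the members were 1, 1 and 2 (mean 1.33 ± 0.577, n = 3), beside 12.3%, 15.2% and 15.1% of all genes. The member was dpr14 each time, with side-IV as the second in replicate 3. A single start site was annotated for 42 of the 54 genes (77.8%) and for 73.5% of other protein-coding genes. Among genes with spans of 20 to 100 kb, which more often have several, it was 84.4% of members and 36.2% of others. The comparison was therefore also made among genes of 20 to 100 kb with a single start site. Of 27 such members, 0 had a start-site summit and 4 a summit in the span (14.8%), at 0.0541 per 10 kb. Of 325 other genes of that kind, 14.8% had a start-site summit and 49.2% a summit in the span, at 0.456 per 10 kb.

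The members' introns, 2.23 Mb in all, account for most of their length and held all 9 span summits. Their density was 0.0404 per 10 kb of intron in the IDR list and 0.0449, 0.0404 and 0.0449 in replicates 1, 2 and 3. The introns of all protein-coding genes had 0.678 per 10 kb in the IDR list and 0.688, 0.641 and 0.652 in the replicates. Restricted to introns more than 500 bp from any start site, the members had 6 summits, 0.0275 per 10 kb, against 0.601 for all genes. Flanking sequence up to 20 kb from the members was between these levels, with 36 IDR summits at 0.179 per 10 kb and 0.179, 0.209 and 0.179 in the replicates. The genes were thus lower than their surroundings, and their surroundings lower than the genome.

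The GC content of the gene spans was close to that of other long genes. Their median GC content was 41.5% (35.4 to 46.0), against 41.7% for other genes of 20 to 100 kb. In 10 kb tiles of the genome sorted by GC content, tiles in members had 0, 0.0323, 0.0794, 0.0156 and 0.0370 summits per 10 kb at GC contents under 38%, 38 to 40%, 40 to 42%, 42 to 44% and 44% or more. The member values rest on 0, 1, 5, 1 and 1 summits in 19, 31, 63, 64 and 27 tiles, so none is known closely. Other tiles had 0.296, 0.535, 0.564, 0.565 and 0.452 in the same classes, higher in each of the 5.

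The 21 dpr genes span 890 kb and held 0 IDR summits, where the genome density would give 43.1. Best-ranked summits in dpr genes numbered 0, 1 and 1 in replicates 1, 2 and 3, at dpr10 in replicate 2 and dpr16 in replicate 3. The family is named for dpr1, whose loss impairs the proboscis response to salt. The 51.96 kb of dpr1 held no IDR summit, and its highest-ranked entry in the list called on pooled replicates was at rank 15091. The only summit beside a dpr gene lay 495 bp upstream of a start site of dpr14, at X:7908781, outside the gene. Its signal value was 239, it ranked 2350 of 6485, and it ranked 2142, 3576 and 2127 in replicates 1, 2 and 3. It was closer to spidey, which encodes an enzyme of lipid metabolism and is transcribed away from dpr14. The start of spidey lay 150 bp from the summit. In all 30000 entries dpr genes had 0.944, 0.753 and 1.01 summits per 10 kb in replicates 1, 2 and 3. DIP genes had 0.522, 0.653 and 0.638, but these lower values rest on DIP-lambda. That gene makes up 379 of the 689 kb of DIP span and had 0 entries in every list. Among dpr genes, dpr21 had none either, with 124.5 of the 890 kb. At dpr20 an IDR summit lay 570 bp from the gene, just past the window. The longest dpr gene, dpr6, spans 164.7 kb and had no IDR summit, while 29 genes of equal span had 4.45 on average.

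The DIP genes, which encode the receptors of dpr proteins, held 1 summit in 689 kb, against 25.9 for genes of equal span. It lay in DIP-alpha (FBgn0052791, X:3507245-3571649), the receptor for dpr6 and dpr10 that helps motor and medulla neurons find their targets. The summit at X:3546326, in intron 2 of 10, had a signal value of 503 and rank 552 of 6485. Replicates 1, 2 and 3 ranked it 533, 544 and 678, so each replicate placed it high in its list. A noncoding gene inside DIP-alpha, lncRNA:CR34335, starts 216 bp from it. In the best-ranked peaks the family had 1, 1 and 2 summits, all in DIP-alpha. The other 10 DIP genes had none, among them DIP-gamma and DIP-delta, which act in colour-vision and mushroom body neurons. The same IDR summit lay 2360 bp outside DIP-theta and 5985 bp outside DIP-eta, and another lay 4411 bp outside DIP-iota.

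The beat genes, known from the guidance of motor axons, held 5 summits in 525 kb, or 0.0952 per 10 kb, against 31.7 for genes of equal span. These lay in 2 of the 14 genes. Each replicate also had 5 best-ranked summits in beat genes. In beat-Ib (FBgn0028645) the summits lay 960 bp apart in intron 2 of 6, at 2L:15911255 and 2L:15912215. The first had a signal value of 522 and rank 503, the highest of any recognition gene, and replicates 1, 2 and 3 ranked it 627, 631 and 344. The second had a signal value of 325 and rank 1366, with replicate ranks of 1728, 1408 and 1238. Noncoding genes start beside both, lncRNA:CR44867 at 436 bp and lncRNA:CR44868 at 343 bp, whereas the start of beat-Ib itself is 51180 and 50220 bp away. The paralogue beat-Ia, the partner of side on motor axons, had no summit, nor did beat-Ic.

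The most summits of any member, 3, were in beat-IIIc (FBgn0032629, 73.1 kb), all in its long intron 2 of 6. They were weak. Overlapping peaks with summits 203 bp apart at 2L:17211499 and 2L:17211702 had signal values of 155 and 135, and another, 31.8 kb away at 2L:17243530, had 129, near the end of the IDR list at 116. The median signal value of the list was 195. None of the 3 was best-ranked in all replicates. The first ranked 4099 and 6091 in replicates 1 and 2 and had no replicate 3 entry within 100 bp. The second ranked 4765, 8373 and 4684 and the distant one 7348, 5143 and 4546. beat-VI, the longest beat gene without a summit at 56.6 kb, had its highest-ranked pooled entry at rank 10801.

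The side genes, which encode the partners of beat proteins, held 3 summits in 417 kb, 1 each in side-IV, side-V and side, against 24.0 for genes of equal span. In replicates 1, 2 and 3 there were 4, 3 and 3. The summit in side-IV (FBgn0038156, 13.6 kb) lay at 3R:13453065 in intron 2 of 16, 2475 bp downstream of the start. This gene acts with beat-IIa and beat-IIb in synapse formation between visual neurons. Its signal value was 456, its rank 670, and replicates ranked it 817, 488 and 868. Unlike the summits ranked above it, in beat-Ib and DIP-alpha, it had no noncoding start within 500 bp. The summit in side-V lay at 2R:23198863 in intron 1 of 13, 5110 bp from the start, with signal value 172, rank 3911 and replicate ranks of 3954, 4396 and 4272. The summit in side itself, the muscle cue that attracts motor axons, lay at 3R:27407265 in intron 2 of 17 and was weak, with signal value 139 and rank 5188. It ranked 5672 and 4743 in replicates 1 and 2 and 10369 in replicate 3. side-III, at 96.7 kb the longest without a summit, had an IDR summit 1262 bp outside it.

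**Figure D2:**
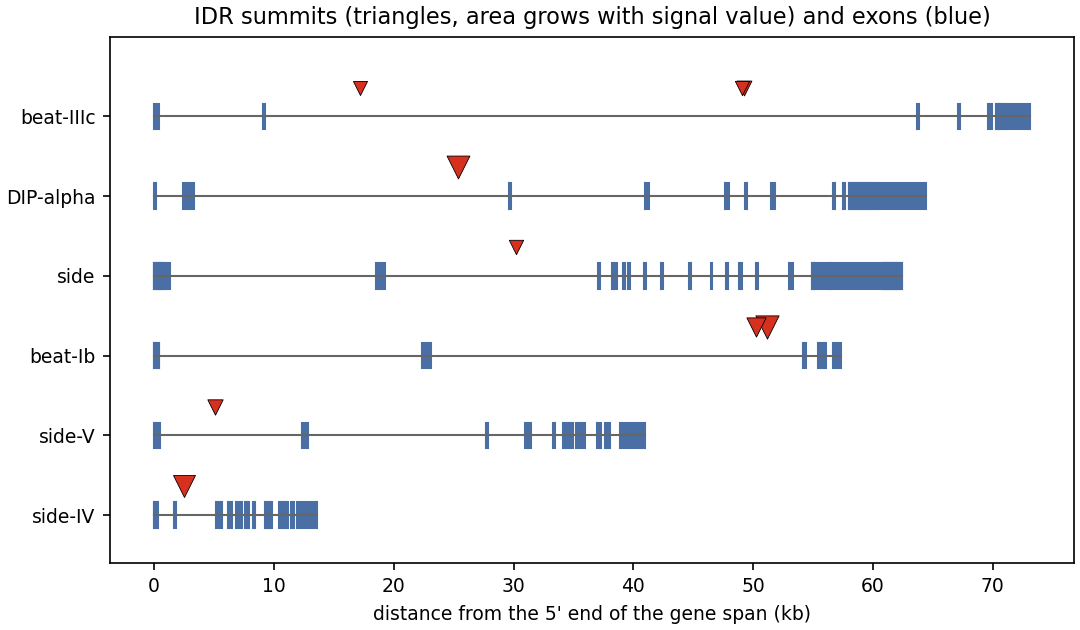
Exons (blue bars) and IDR summits (red triangles, area growing with the signal value) in the 6 recognition genes with a summit, drawn to scale as distance in kb from the 5′ end of the gene. All 9 summits lie in introns, 8 of them in intron 2, and the pair in beat-Ib and the single ones in DIP-alpha and side-IV have the highest signal values, 325 to 522.

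Of the 9 summits in spans, 3 lay within 500 bp of a noncoding start, which was the nearest start. Of all 4215 IDR summits in protein-coding spans, 1.85% did. Intron 2 held 8 of the 9. Its share of the gene span was 74.5% in beat-IIIc, 54.2% in beat-Ib, 40.8% in DIP-alpha, 28.6% in side and 24.6% in side-IV. Of the 10 summits of these genes, 6 were among the best-ranked in all 3 replicates, those of beat-Ib, DIP-alpha, side-IV, dpr14 and side-V, and 4 in 2 of them. These 4, in beat-IIIc and side, also had the 4 lowest signal values.

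Known partners were compared pair by pair. In the IDR list DIP-alpha had 1 summit while dpr6 and dpr10 had 0. DIP-gamma had 0, as did dpr11, dpr15, dpr16 and dpr17, and so did both DIP-delta and dpr12. The side gene had 1 and beat-Ia 0. Similarly, side-IV had 1 and its partners beat-IIa and beat-IIb 0. Neither side-VI nor beat-Va, beat-Vb and beat-Vc had any. With only 6 of 54 genes occupied, few pairs could hold a summit on both sides. In the best-ranked peaks, side-IV and beat-IIa both held one in replicate 1, and DIP-alpha and dpr10 both did in replicate 2. Both genes of all 13 pairs held entries in the pooled list, where 87.0% of members and 79.8% of genes of equal span held one. Among all entries of replicates 1, 2 and 3 it was 11, 13 and 13 pairs.

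The shortage lay in the high-ranked peaks and faded along the lists. In the pooled list, the density in members relative to the arms was 0.0637 for the top 5000 entries, 0.117 for the next 5000 and then 0.488, 0.584, 0.701 and 0.998 for the later tiers of 5000. The same rise was seen in replicate 1 (0.0743, 0.159, 0.467, 0.584, 0.796 and 0.860). Replicate 2 had 0.0637, 0.223, 0.234, 0.542, 0.754 and 0.977, and replicate 3 had 0.0850, 0.138, 0.478, 0.648, 0.796 and 0.924. The lists include background at their low end, so an entry there need not be a binding site. Among the weakest entries the members were as densely covered as the genome or nearly so.

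**Figure D3:**
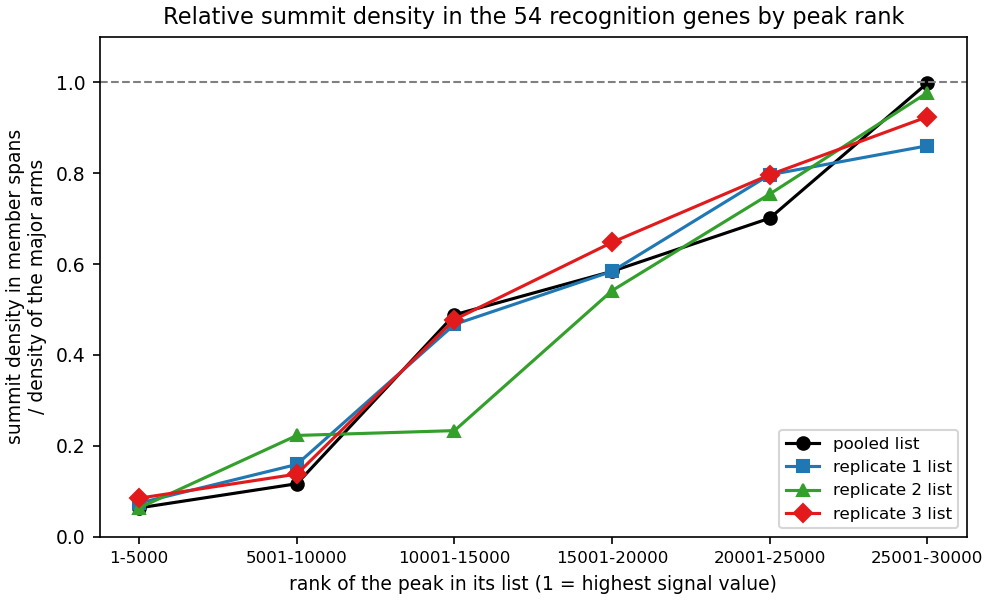
Summit density in the 54 recognition genes divided by that of the major arms (vertical axis), for successive tiers of 5000 entries by signal value (horizontal axis), in the pooled list and in each replicate list, with a dashed line at 1. The ratio starts between 0.0637 and 0.0850 in the top tier and ends between 0.860 and 0.998 in the last.

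With all 30000 entries, the members held 277, 263 and 289 summits in replicates 1, 2 and 3, where the genome density would give 565. Entries were present in 43, 48 and 45 of the 54 genes, beside 23.3%, 26.7% and 27.5% of all genes. Start sites had an entry within 500 bp for 12, 12 and 17 members (22.2%, 22.2% and 31.5%), beside 26.0%, 31.7% and 31.1% of all genes. In replicate 3 the share at start sites was thus near that of all genes, and in replicates 1 and 2 the gap was much smaller than among the best-ranked peaks. In the pooled list there were 278 summits in 47 members (87.0%), beside 23.3% of all genes and 79.8% on average among genes of equal span. The entries thus reached most of the genes, at about the share of genes of equal size, but in smaller number. Of the 48 genes without an IDR summit, 41 had a pooled entry, and their best ranks had a median of 13988. The 3 closest to the end of the IDR list, rank 6485, were beat-IIa at 6670, dpr16 at 7027 and beat-Vc at 7408, and the weakest summit inside was that of beat-IIIc at 5676. Each of them had a best-ranked summit in 1 replicate, beat-IIa in replicate 1, beat-Vc in replicate 2 and dpr16 in replicate 3.

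Long genes without a summit differed from each other in these weak entries. dpr6 had 21, 17 and 14 entries in replicates 1, 2 and 3 and side-III 12, 21 and 15. beat-VI had 7, 4 and 9. In contrast DIP-lambda, the longest of all at 379 kb, had 0 in every list, and so did dpr21 at 124.5 kb. Both lie on 2R far from other peaks, with the nearest IDR summit 4421118 bp from DIP-lambda and 1935955 bp from dpr21. On chromosome 4, dpr7 had its nearest IDR summit 171502 bp away and a single entry, in replicate 2. Among shorter genes, DIP-zeta (19.5 kb) and dpr14 (4.58 kb) also had 0 in their spans in every list. On 2R, dpr12 was 215899 bp from the nearest IDR summit, closer than DIP-lambda and dpr21, and had 6, 4 and 7 entries. A link between distance and entries was not tested. Without dpr21, DIP-lambda and dpr7 the members had 9 summits at 0.0447 per 10 kb, still below 0.484. This comparison was chosen after seeing the data. Of the unoccupied members, 31 had no IDR summit within 20 kb, and the median distance to the nearest was 30.5 kb.

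**Figure D4:**
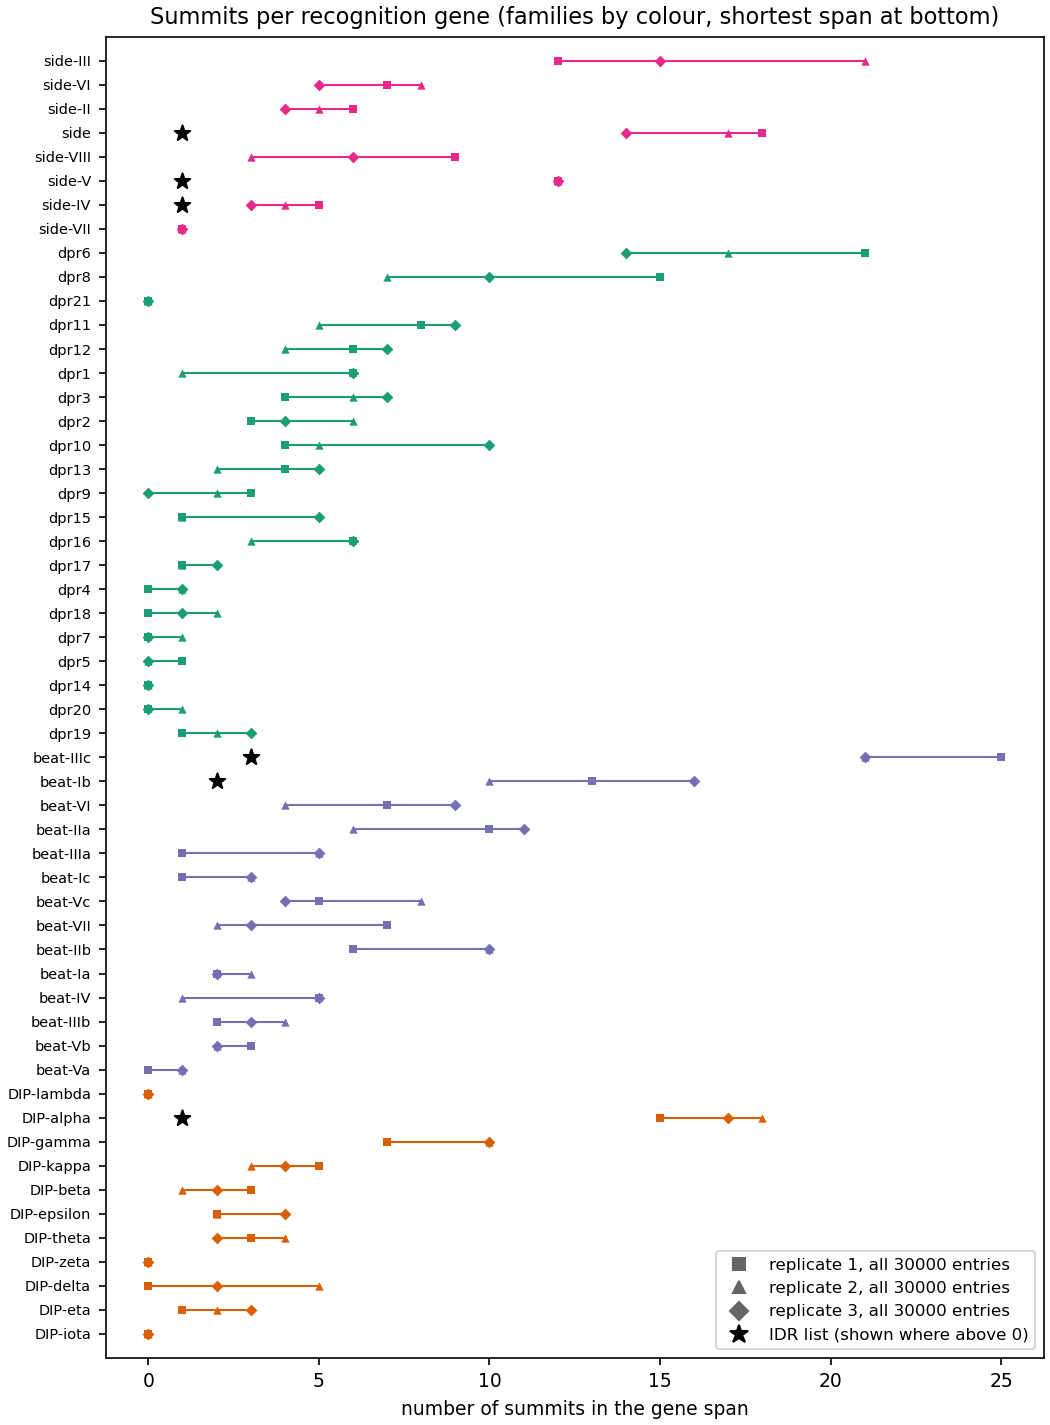
Number of summits in the span of each of the 54 genes (horizontal axis) among all 30000 entries of replicate 1 (squares), 2 (triangles) and 3 (diamonds), joined by a line, with stars for IDR summits above 0, families by colour and genes sorted by span. Counts reach 25 at beat-IIIc and stay at 0 in all replicates for DIP-lambda, dpr21, DIP-zeta, DIP-iota and dpr14.

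Other recognition genes held about as many summits in sum as genes of equal span. A list of 63 further genes for cell recognition and axon guidance, with a median span of 35.1 kb, held 131 IDR summits, and genes of equal span would give 131.25. Its density was 0.412 per 10 kb, beside 0.484 over the arms, and 0.391 ± 0.0214 in the best-ranked peaks (n = 3 replicates). A summit in the span was found for 30 of the 63 (47.6%) and at a start site for 15 (23.8%). The shares of all genes, 11.8% and 12.5%, come from mostly shorter genes. Among genes of 20 to 100 kb outside the dpr, DIP, beat and side families, 58.2% had a span summit and 27.5% a start-site summit. The list also holds shorter and longer genes, and shares for genes of equal span are not given for it here. The sum was spread unevenly, and 33 of the 63 genes had no summit in the span. The cell-adhesion gene kirre, with a span of 394 kb, alone had 22 of the 131. The adhesion gene ed had 11, the receptor phosphatase Ptp10D and the adhesion gene Fas3 8 each, and the netrin receptors fra and unc-5 5 each. The immunoglobulin genes Dscam2 and Dscam4, robo1, robo3 and all 4 neuroligin genes had 0 in their spans. The contrast between the lists was not tested, and both were chosen with earlier results of these data known.

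The promoters of the recognition genes also differed in composition from those of most genes. Over the 300 bases from 250 before to 50 past the 5′-most start, the median GC content was 50% in the 54 genes (quartiles 46.1 to 53.7), 38% in other protein-coding genes and 44.7% in other genes of 20 to 100 kb. Of the 54, 49 were above the median of the other genes, and the medians were similar in the dpr (49.7%), DIP (50.3%), beat (49.7%) and side (51.7%) families. Genes with a start-site summit had 38%, like genes in general. GAGAG was found in 31 of 54 promoters (57.4%), against 29.6% of other genes, 49.4% of other genes of 20 to 100 kb and 63.5% of the other recognition list. It was in 12 of 14 beat, 10 of 21 dpr, 4 of 11 DIP and 5 of 8 side promoters. The AT-rich ATATT was in 35.2% of the members' promoters, against 72.2% of other genes and 57.7% of other genes of 20 to 100 kb. CGATA was in 20.4% against 47.5% and 36.9%, and TAATTA in 7.41% against 20.5% and 12.6%. All of these were searched on both strands, and short AT-rich words are fewer in GC-rich windows by composition alone.

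**Figure D5:**
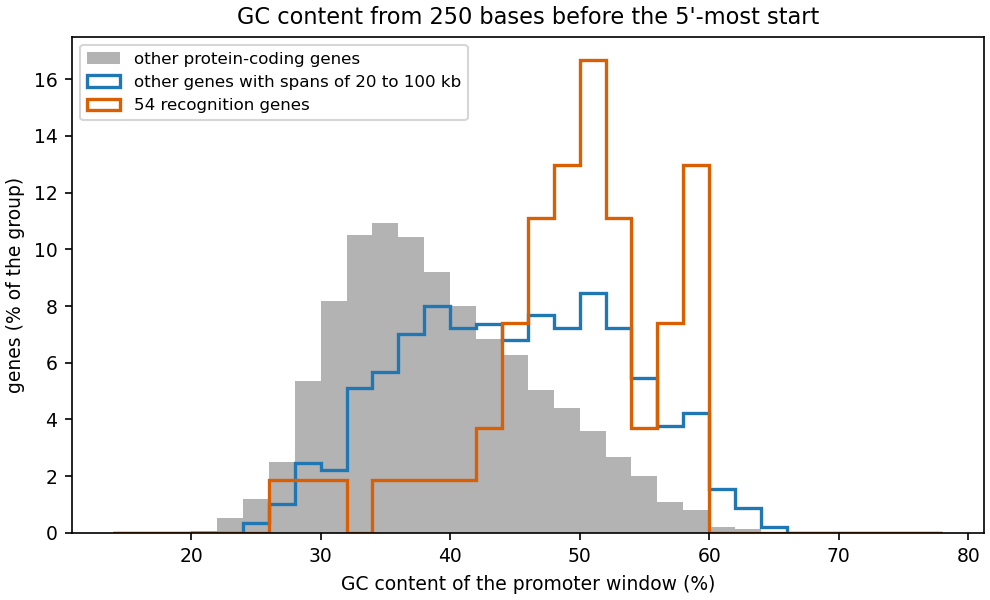
Share of genes in each group (vertical axis, % of the group) by GC content of the 300-base promoter window (horizontal axis), for the 54 recognition genes (orange line), other genes with spans of 20 to 100 kb (blue line) and other protein-coding genes (grey). The medians are 50%, 44.7% and 38%.

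Promoters of the longest members without an IDR summit in the dpr, beat and side families are given as examples of these GC-rich windows. Each runs 5′ to 3′ on the strand of the gene in the Release 6 (dm6) genome, from 250 bases before the start, and capitals mark GAGAG or its complement CTCTC. Their GC contents were 50.3%, 54.3% and 50.3%, and they held 3, 0 and 1 matches.
dpr6 (chr3L:9974401-9974700, plus strand): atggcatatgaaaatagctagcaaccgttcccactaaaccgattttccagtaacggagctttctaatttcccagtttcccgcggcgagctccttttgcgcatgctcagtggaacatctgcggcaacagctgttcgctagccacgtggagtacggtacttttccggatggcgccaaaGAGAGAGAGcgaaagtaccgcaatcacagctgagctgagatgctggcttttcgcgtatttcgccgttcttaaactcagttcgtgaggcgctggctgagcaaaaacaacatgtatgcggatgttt
beat-VI (chr3R:28417958-28418257, plus strand): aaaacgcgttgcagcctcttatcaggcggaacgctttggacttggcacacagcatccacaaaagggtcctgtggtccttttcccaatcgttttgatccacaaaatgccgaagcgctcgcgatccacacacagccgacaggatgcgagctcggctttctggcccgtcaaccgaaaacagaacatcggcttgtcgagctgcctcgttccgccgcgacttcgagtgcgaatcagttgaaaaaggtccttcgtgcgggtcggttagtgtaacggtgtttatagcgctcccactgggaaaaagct
side-III (chr3R:5959506-5959805, minus strand): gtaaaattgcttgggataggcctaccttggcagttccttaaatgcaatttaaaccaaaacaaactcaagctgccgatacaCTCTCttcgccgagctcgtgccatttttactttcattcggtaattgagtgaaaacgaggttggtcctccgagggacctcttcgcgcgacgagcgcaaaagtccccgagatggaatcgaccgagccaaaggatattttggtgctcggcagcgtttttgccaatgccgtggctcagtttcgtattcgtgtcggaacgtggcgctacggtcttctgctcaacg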

How the data were processed

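Per the labels, salr-GFP chromatin from whole prepupae was sonicated, recovered with anti-GFP antibody and sequenced as 3 biological replicates. The authors deposited peak lists per replicate, for the pooled replicates and after IDR thresholding, on dm6 and dm3. The 5 dm6 lists were used. Each peak's signal value is a deposited score with no scale given, so it only ranks peaks within a list. Aligner, peak caller and depth are not given in the labels or lists used here. Whether the replicates came from separate cultures of flies is not stated beyond the label, so their spread may be partly technical.

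A summit is the deposited peak start plus offset, 1-based. Genes and start sites came from Ensembl release 115 (BDGP 6.54) and sequence from the Release 6 genome, read with Python 3.11.15, numpy 2.4.6 and pandas 2.3.3. Members were taken by symbol. Summits were counted in spans and within 500 bp of start sites, beside all protein-coding genes, the arms and other genes of 0.8 to 1.2 times the span. Summits within 100 bp were matched between lists. The counting was tested on simulated data. Members with a start-site summit or 3 or more summits were described in full, as were, per family, the member of highest density and the longest without a summit, and the other summits were added. The gene set, lists, motifs and alternatives were chosen with earlier results of these data known, and no test across genes was run.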

Additional observations from a re-analysis of the deposited data

How the results depend on the processing

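The counts rest on few summits, and alternatives that change the number of peaks moved them. The 1621 strongest IDR peaks gave 0 members with a start-site summit, 3 with a span summit, 4 summits and 0.0159 per 10 kb. The 3242 strongest gave 3 members, 4 summits and 0.0159 per 10 kb. Both lists hold fewer peaks than the IDR list, so their density over the arms is lower too. That density and the shares of all genes in them are not given here, so these values do not show a deeper shortage. To leave out each replicate in turn, the IDR peaks that were best-ranked in both others were kept. The IDR list was not called again, so the omitted replicate still shaped it. The kept peaks gave 1 to 1 start-site members, 5 to 6 span members, 6 to 7 summits and 0.0238 to 0.0278 per 10 kb. They numbered 4046 to 4359, at 0.302 to 0.326 per 10 kb over the arms. Best-ranked peaks of single replicates gave 0.0397, 0.0397 and 0.0436 per 10 kb, and 2 start-site members in replicate 3. All entries gave 12, 12 and 17 start-site members (22.2%, 22.2% and 31.5%), beside 26.0%, 31.7% and 31.1% of all genes. They gave 43, 48 and 45 span members, beside 23.3%, 26.7% and 27.5% of all genes and 79.5%, 83.8% and 83.6% of genes of equal span. Summits numbered 277, 263 and 289, at 1.1, 1.04 and 1.15 per 10 kb. The whole pooled list, added after seeing the data, gave 13, 47, 278 and 1.1.

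Start-site members were 0 at 250 bp and 2 at 1000 bp. With 5 kb added to each side, 12 members held 16 summits. The shares of all genes at these settings are not given here, so these counts have no yardstick. Summits away from other genes' starts numbered 6, or 0.0238 per 10 kb. The ratio to genes of equal span was 0.0798 with spans of 0.5 to 2 times. Without dpr21, DIP-lambda and dpr7 the density was 0.0447. ATATT was in 80% of member windows of 100 bp each side, above the 70.5% of all windows, where it was below at 50 bp. GAGAG turned likewise, from 10% against 11.6% at 50 bp to 30% against 23.2% at 100 bp. Of the other recognition list, 14 genes had a span summit among the 1621 strongest peaks, and 25 to 27 did without one replicate, alternatives added after seeing the data.

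No paired analysis was possible because the samples form a single group. The cause of each move was not tested, beyond the number of peaks in each list. Depth is unknown, so no limit follows from the absence of a peak.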
